A study of Sus scrofa with 60 samples.

Results

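Transcripts of the proteasome were followed in the liver of 60 German Landrace pigs at 4 stages, in the offspring of gilts fed an adequate protein (AP) diet during gestation. The members were all probe sets of the Affymetrix porcine array whose single gene symbol in the platform annotation begins with PSMA, PSMB, PSMC, PSMD, PSME, PSMF or PSMG. This rule found 46 probe sets of 40 genes among 23999 probe sets and 6765 genes with a single symbol. It used names only and no measured value. The stages were 94 days post conception (dpc), before birth, with 15 animals, and 1, 28 and 188 days post natum (dpn) with 15, 14 and 16 animals, at 1 array per animal. All 4 groups share the breed and the gestational diet and carry no genetic change. The study's methods state that fetuses and born pigs belonged to separate experiments, that light and heavy sibs were taken before and just after birth, and that both older groups had fasted overnight. Stage cannot be told apart from these differences. A change from 94 dpc to 1 dpn is called a change at birth for short. This period also holds the last weeks of pregnancy and the time from birth to sampling. No sample lies between, so when in this period a gene changed is not known. Offspring of the high protein group were not analysed here.

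The proteasome is the protease that breaks down most proteins tagged with ubiquitin. Its barrel-shaped core, the 20S particle, has outer rings of alpha subunits that gate the entry and inner rings of beta subunits, of which PSMB5, PSMB6 and PSMB7 cut peptide bonds. The 19S cap recognises, unfolds and feeds in tagged proteins, with ATPases in its base and a ubiquitin-removing enzyme in its lid. Interferon-gamma induces PSMB8, PSMB9 and PSMB10, which take the places of the catalytic subunits in newly made particles, called immunoproteasomes, and change the peptides offered to MHC class I molecules.

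The 40 genes comprised 7 of the 8 listed genes of the alpha ring, all 7 of the constitutive beta ring, 2 of 3 immunoproteasome genes, 5 of 6 base ATPases, 3 of 3 other base subunits, 7 of 8 lid subunits, 4 of 7 assembly factors, 4 of 4 activators and the inhibitor PSMF1. No probe set carried the single symbol PSMA8, PSMB9, PSMC4, PSMD7, PSMD9, PSMG2 or PSMG4. Of 4 genes with several probe sets the brightest, by its mean on the 60 arrays, was used.

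Levels are log2 of the deposited intensity plus 16. Different probe sets differ in brightness for the same amount of RNA, therefore only changes of a gene were compared, never the level of one gene with that of another. A change is the later minus the earlier stage on the log2 scale, followed by its standard error (SE), and it was called where limma's p, adjusted by Benjamini-Hochberg over all probe sets tested, was below 0.05. To be tested a probe set had to exceed the array median in 50% or more of the animals at 1 or more of the stages compared, which all 40 genes did in each comparison. Background control probe sets had stage means of at most 6.29, below the stage means of all 40 genes.

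All 6 hepatocyte markers with a probe set, among them albumin and transferrin, lay above the array median at each stage. At birth 1 of them rose and 1 fell, where 23.9 and 41.1% of all probe sets did. From 1 to 28 dpn 5 fell (39.0% of all), and from 28 to 188 dpn all 6 rose, by 0.26 to 0.38 (15.5% of all). The arrays were scaled to a common trimmed mean but not to a common median, which ran from 160 to 181 intensity units at 94 dpc and from 101 to 119 at 188 dpn. The median change of all probe sets tested was -0.15 from 94 dpc to 1 dpn, -0.10 from 1 to 28 dpn, -0.04 from 28 to 188 dpn and -0.34 over the whole span. With quantile normalization these medians became -0.04, 0.03, 0.01 and -0.02, and with each array centred on its median 0.02, 0.22, 0.02 and 0.21. The log2 ratio of the actin control probe sets near the opposite transcript ends, a measure of RNA integrity and labelling that rises as less of the far end is read, was 2.29 ± 0.34 (SD) in fetuses, 1.76 ± 0.31 in newborns, 3.54 ± 0.46 at 28 dpn and 4.01 ± 0.45 at 188 dpn. It did not overlap between 1 and 28 dpn, nor between 94 dpc and 188 dpn, so in these comparisons stage and this ratio cannot be told apart. The same ratio of the GAPDH controls had means of 0.99, 0.38, 0.77 and 0.68 in order of age. From 94 dpc to 188 dpn it went down where the actin ratio went up, and only the actin ratio served as a covariate. In bulk liver, fewer cells of a type and less RNA per cell cannot be told apart either. The methods describe the animals as chosen in pairs of sibs, but the labels do not name litters, so related animals were treated as independent in every SE and p.

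Proteasome transcripts moved mainly upward around birth and mainly downward after 28 dpn. From 94 dpc to 1 dpn 28 of the 40 genes rose, where 23.9% of all probe sets rose, and 3 fell, where 41.1% of all did. In 12 genes every newborn lay above every fetus, against 4.46% of all probe sets, and in 0 genes every newborn lay below, against 5.53%. The median change of the 40 genes was 0.35, or 0.50 above that of all probe sets. With quantile normalization 24 rose and 3 fell, and with median centring 33 rose and 2 fell. In either direction 62.7 and 61.9% of all probe sets were called under these scalings, against 65.0% as deposited. The margin over all probe sets shrank to 0.26 with quantile normalization and was 0.50 with median centring.

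From 1 to 28 dpn 15 of the 40 genes rose, against a background of 28.5%, and 15 fell, against 39.0%. The share that fell was near the background, so this split says little about the proteasome. Groups of animals did not overlap in 3 genes that were higher (background 4.59%) and 4 that were lower (6.83%), counts not far from the background either. The median change was -0.02. The balance of this period rested on the scaling: rises made up 50.0% of the calls as deposited, 37.5% with quantile normalization and 74.2% with median centring. With the actin ratio as a covariate 6 genes rose and 5 fell, while the share of all probe sets called dropped from 67.5 to 23.7%.

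From 28 to 188 dpn 3 genes rose (background 15.5%) and 19 fell (24.1%), with a median change of -0.17. Animals of the stages overlapped in all 40 genes, where 0.485% of all probe sets were fully higher and 0.756% fully lower. Over the whole span from 94 dpc to 188 dpn 21 genes rose (27.9%) and 14 fell (53.4%). Every animal of 188 dpn lay above every fetus in 16 genes (10.3%) and below in 6 (21.8%). The median change over the span was 0.32, or 0.66 above that of all probe sets, and this margin shrank to 0.07 with quantile normalization. Rises were 60.0% of the calls over the span, 51.5% with quantile normalization and 72.2% with median centring. Limma's moderated F over all 60 arrays found a difference among the stages for 40 of 40 genes, in a background of 93.2%, so this count says little about the proteasome.

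**Figure D1:**
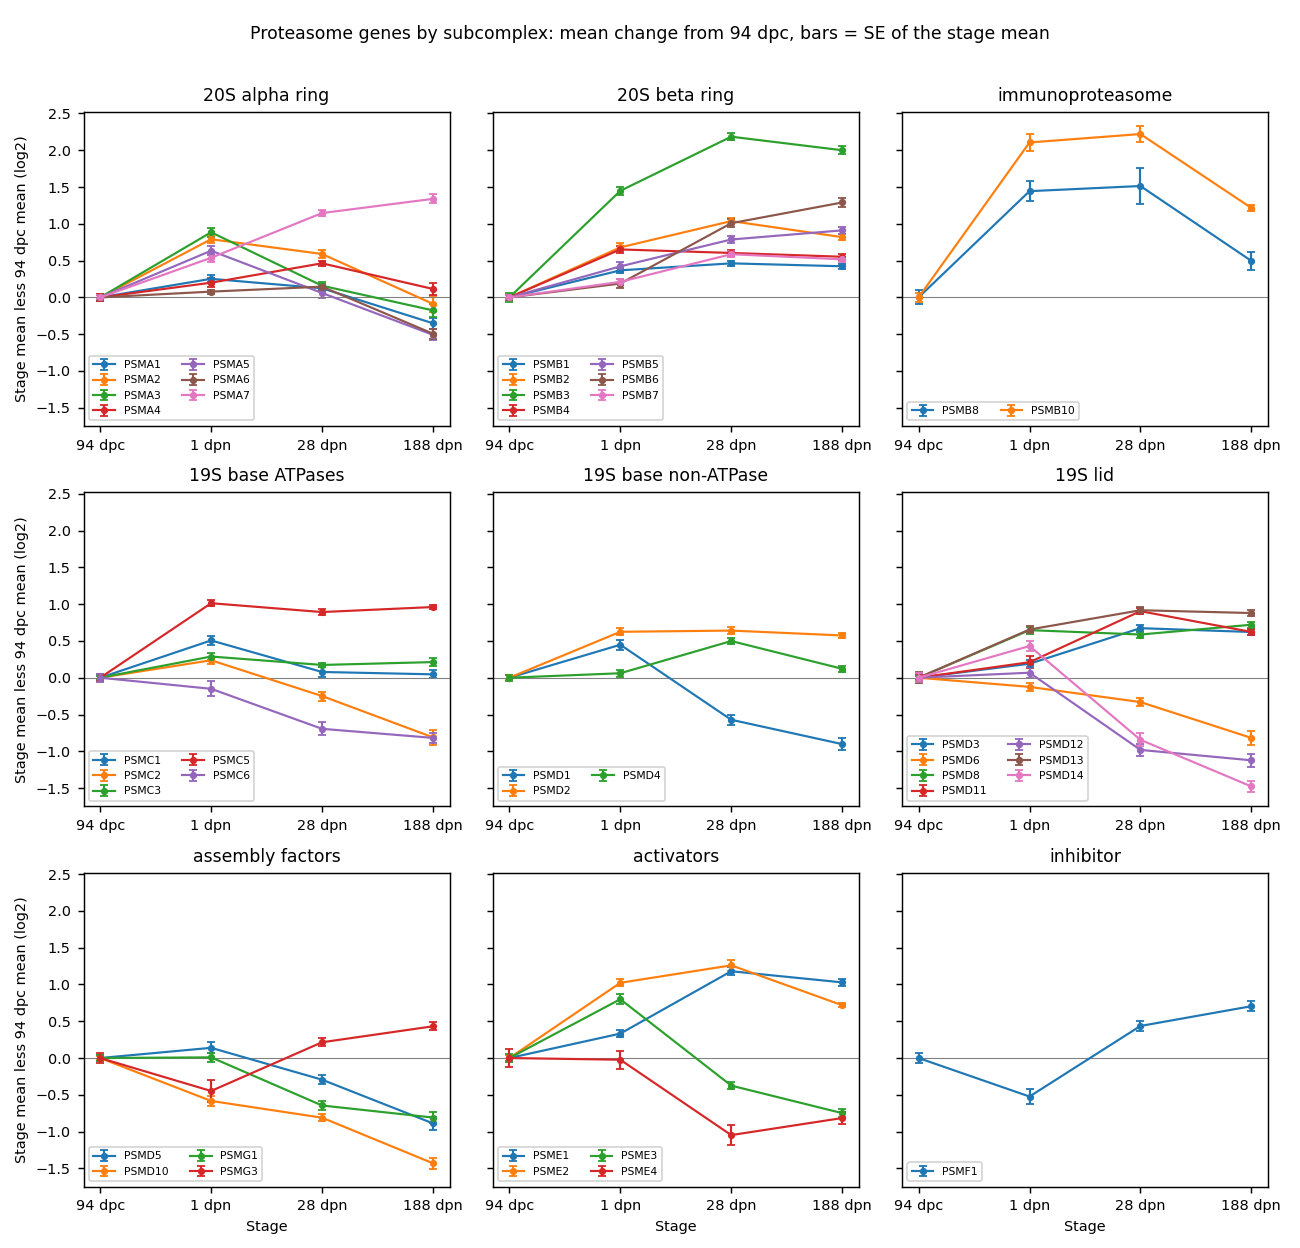
Mean level of each proteasome gene at the 4 stages less its own mean at 94 dpc (y axis, log2 scale), with 1 panel per subcomplex and 1 line per gene; bars are the SE of the stage mean over 14 to 16 animals. Lines of the beta ring stay above the fetal level at all later stages, 6 of 7 alpha lines turn down after 28 dpn, and the immunoproteasome lines are highest at 1 and 28 dpn.

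The stage with the highest mean was 1 dpn for 15 genes, 28 dpn for 15, 188 dpn for 6 and 94 dpc for 4, where 21.0, 14.3, 20.2 and 44.6% of all probe sets had theirs. The lowest mean lay at 94 dpc for 22 genes and at 188 dpn for 15 of 40, against 21.9 and 37.3% of all probe sets, so the latter count was that of the background. A rise at birth followed by falls in both later periods was found in 7 genes, namely PSMA2, PSMA3, PSMA5, PSMC2, PSMD1, PSMD14 and PSME3, and in 3.51% of the 11414 probe sets tested in all 3 periods. PSMA5, PSMD14 and PSME3 had this pattern under all 10 alternatives, 4 genes had it with median centring and 3 with the actin covariate, and the rise of PSMC2 was not shared by its other probe sets. Another 7 rose in the first and the second period with no call in the last (PSMA7, PSMB3, PSMB5, PSMB7, PSMD3, PSMD13 and PSME1), as did 3.28% of all probe sets, but 4 with quantile normalization, 12 with median centring and 1 with the actin covariate. PSMB6 rose in each period (2.34% of all probe sets), but it lost a call without the filter, with quantile normalization and with the actin covariate. PSMD10 fell in each (3.31%), but its middle fall lost the call without the filter, with quantile normalization, with the actin covariate, without the least correlated arrays and with median centring, where the change was 0.09.

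**Figure D2:**
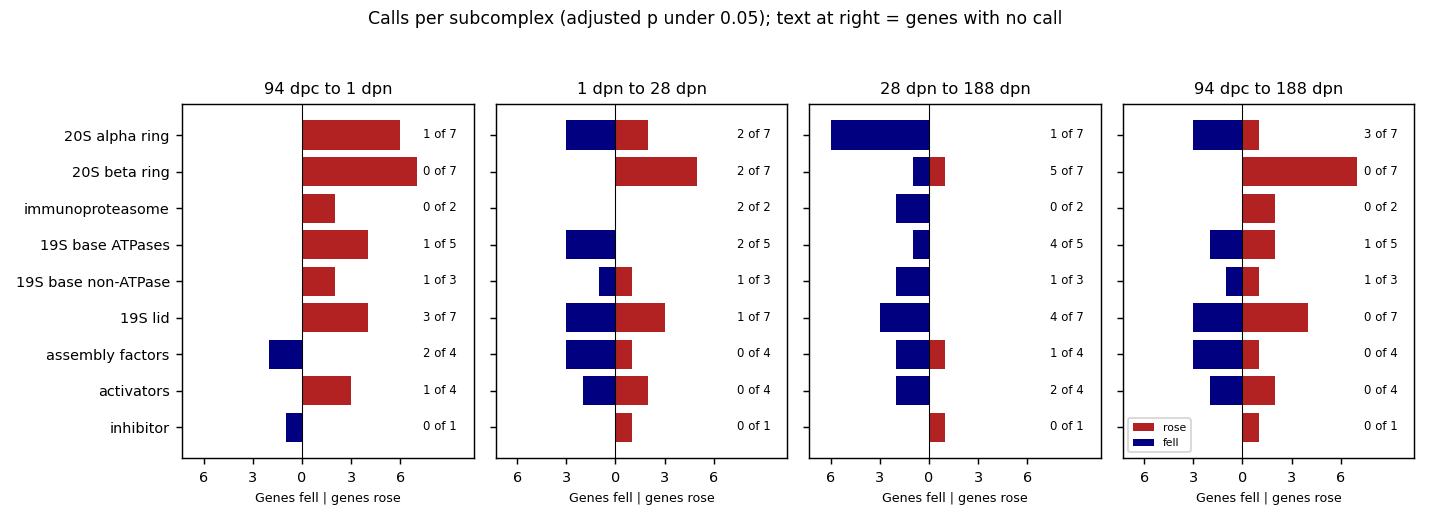
Number of genes of each subcomplex that rose (bars to the right of 0) or fell (to the left) in each period and over the whole span, at an adjusted p below 0.05 from limma; the text gives the genes with no call out of those tested. All 7 beta ring genes rose from 94 dpc to 1 dpn (23.9% of all probe sets did), and 6 of 7 alpha ring genes fell from 28 to 188 dpn (24.1%).

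All members of the constitutive beta ring had a net rise. From 94 dpc to 1 dpn 7 of 7 genes rose (background 23.9%), and from 1 to 28 dpn 5 rose and 0 fell (28.5 and 39.0%). From 28 to 188 dpn 1 rose (PSMB6) and 1 fell (PSMB2), in a background of 15.5 and 24.1%. Over the span all 7 rose (27.9%) with a median change of 0.82, and in all 7 the animals of 188 dpn lay above all fetuses (10.3%). With quantile normalization 4 of the 7 rose over the span (PSMB2, PSMB3, PSMB5 and PSMB6), PSMB1 had a change of -0.05 with no call, and 0 fell. With the actin ratio as a covariate 6 rose over the span, but only PSMB3 from 1 to 28 dpn.

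PSMB3, a structural subunit of the ring, had the widest range of the beta genes. Its lowest, median and highest log2 level were 9.16, 9.55 and 10.07 in fetuses, 10.61, 11.12 and 11.28 in newborns, 11.52, 11.76 and 12.01 at 28 dpn and 11.15, 11.58 and 12.01 at 188 dpn. Fetuses, newborns and pigs of 28 dpn formed 3 separate ranges in ascending order, whereas the 2 oldest groups overlapped. The change was 1.45 ± 0.09 at birth (2.73-fold, adjusted p = 4.4e-15 with limma), 0.74 ± 0.08 from 1 to 28 dpn (adjusted p = 3.3e-09) and -0.18 ± 0.08 thereafter, which was not called (adjusted p = 0.071). Its net change of 2.00 ± 0.09, or 4.00-fold, was the largest of the 40 genes (adjusted p = 4.9e-20). PSMB1, also a structural subunit, had the narrowest range of the ring, with means of 12.69, 13.06, 13.15 and 13.11 in order of age.

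The catalytic subunits are given in turn, and whether they differed in the period of their rise was not tested. With the actin ratio as a covariate PSMB5, PSMB6 and PSMB7 had no call from 1 to 28 dpn. PSMB6, which cuts after acidic residues, spanned 11.79 to 12.22 with a median of 12.04 in fetuses and 11.85 to 12.63 with a median of 12.21 in newborns. At 28 dpn its levels lay between 12.74 and 13.52 (median 13.03) and at 188 dpn between 12.90 and 13.88 (median 13.31). Ranges overlapped on either side of birth and again after 28 dpn, but every pig of 28 dpn exceeded every newborn. Accordingly its change was small at birth, 0.19 ± 0.08 (adjusted p = 0.028), and large from 1 to 28 dpn, 0.82 ± 0.09 (adjusted p = 1.8e-09). A further 0.28 ± 0.09 followed to 188 dpn (adjusted p = 0.014). Across the animals of a stage PSMB6 had an r of 0.65, 0.30, 0.46 and 0.29 with the actin ratio, in order of age. The part of this ratio in its changes was not tested.

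PSMB5 carries the chymotrypsin-like site, the target of clinical proteasome inhibitors. It ran from 11.71 to 12.14 (median 11.88) in fetuses, 11.94 to 12.71 (12.30) in newborns, 12.41 to 13.00 (12.64) at 28 dpn and 12.47 to 13.08 (12.78) at 188 dpn. Neighbouring stages overlapped throughout, and only fetuses and the 2 older groups were apart. The changes were 0.42 ± 0.08, 0.36 ± 0.09 and 0.13 ± 0.07, of which the first 2 were called (adjusted p = 1.3e-05 and 0.0005). PSMB7, with the trypsin-like site, ran from 12.40 to 12.80 (median 12.55), 12.57 to 12.95 (12.78), 12.92 to 13.44 (13.15) and 12.90 to 13.46 (13.06) at the same stages. It rose by 0.21 ± 0.06 at birth and 0.38 ± 0.07 to 28 dpn (adjusted p = 0.0019 and 9.2e-06) and then changed by -0.07 ± 0.06 with no call.

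The immunoproteasome genes had a large rise from 94 dpc to 1 dpn, similar means at 1 and 28 dpn and a decline to 188 dpn. Both PSMB8 and PSMB10 rose from 94 dpc to 1 dpn (background 23.9%) and fell from 28 to 188 dpn (24.1%). Neither was called from 1 to 28 dpn, where 28.5% of all probe sets rose and 39.0% fell. The calls of the first and last period were the same with quantile normalization, with median centring and with the actin ratio as a covariate. With median centring PSMB10 was also called as a rise from 1 to 28 dpn.

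PSMB10 encodes the inducible counterpart of PSMB7. Its lowest, median and highest levels were 8.71, 8.91 and 9.52 in fetuses, 10.24, 11.03 and 11.79 in newborns, 10.21, 11.27 and 11.79 at 28 dpn and 9.98, 10.20 and 10.56 at 188 dpn. All fetuses lay below all born animals. The newborn and 28 dpn ranges nearly coincided, and the oldest pigs reached into the lowest part of the 28 dpn range. The rise at birth was 2.11 ± 0.13, or 4.30-fold (adjusted p = 3.1e-15), the largest of any proteasome gene in any period. Up to 28 dpn the change was 0.11 ± 0.15, and from 28 to 188 dpn the gene fell by 1.00 ± 0.11 (adjusted p = 1.6e-08), ending 1.22 ± 0.08 above the fetal level.

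PSMB8, the inducible counterpart of PSMB5, varied more between animals. It ran from 7.52 to 8.82 (median 8.16) in fetuses, 8.58 to 10.51 (9.70) in newborns, 8.24 to 11.58 (9.53) at 28 dpn and 8.01 to 9.78 (8.58) at 188 dpn. The stages overlapped, and the group of 28 dpn contained both animals at fetal level and the highest animals of all. It rose by 1.44 ± 0.16 at birth (adjusted p = 2.5e-09), changed by 0.07 ± 0.26 to 28 dpn and fell by 1.02 ± 0.25 to 188 dpn (adjusted p = 0.0015). The net rise over the span, 0.50 ± 0.15 (adjusted p = 0.0037), was not called with the actin ratio as a covariate.

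**Figure D3:**
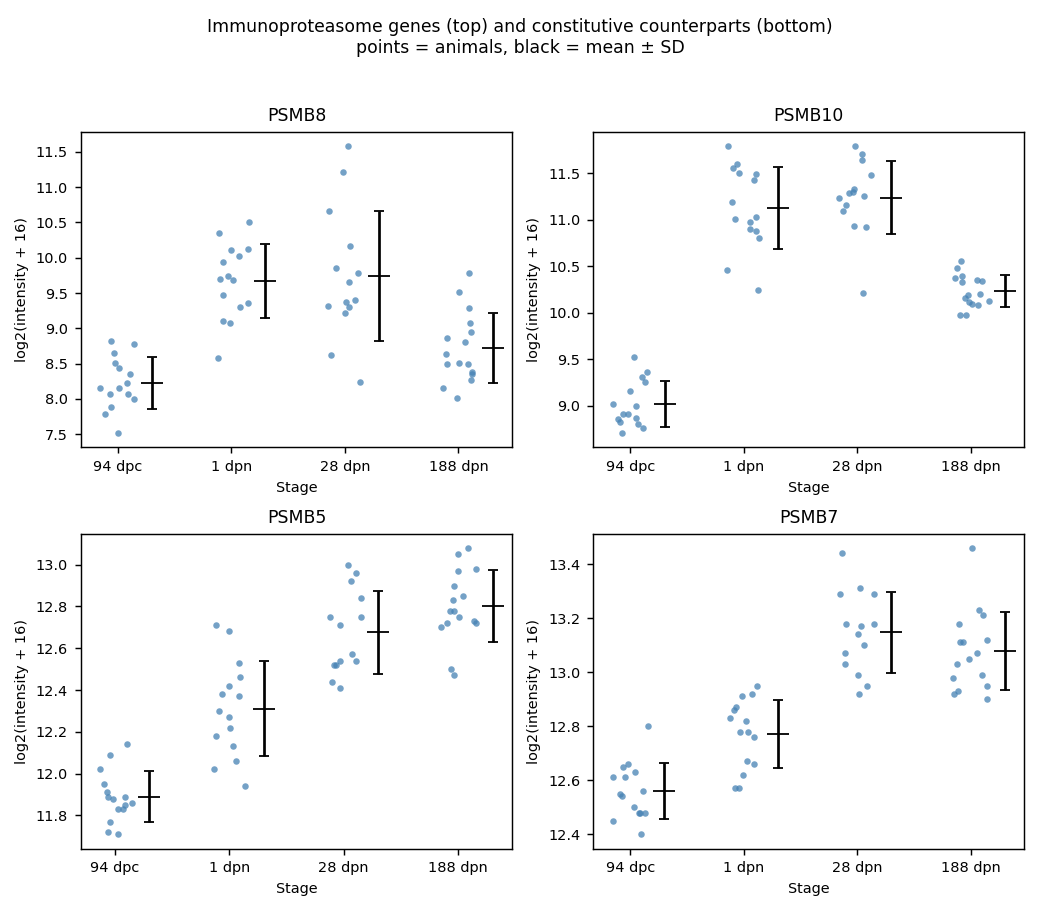
Level of PSMB8 and PSMB10 (top) and of their constitutive counterparts PSMB5 and PSMB7 (bottom) in each animal at the 4 stages, as log2 of intensity plus 16 on the y axis, which starts above 0 and differs between panels; black marks are the mean ± SD. The immunoproteasome genes fall back at 188 dpn, PSMB10 from a mean of 11.24 to 10.23, while PSMB5 and PSMB7 had no call in that period.

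Whether an inducible subunit and its counterpart changed unequally was tested on their difference within each animal, by two-sided permutation tests with 100000 resamples and adjustment over 12 tests of 4 pairs in 3 periods. PSMB10 less PSMB7 rose by 1.89 ± 0.14 from 94 dpc to 1 dpn, with all newborns above all fetuses, and fell by 0.93 ± 0.13 from 28 to 188 dpn. Both had an adjusted p of 2e-05 in this permutation test, from the smallest p that so many resamples can give. PSMB8 less PSMB5 rose by 1.02 ± 0.16 at birth (adjusted p = 2e-05, permutation test) and fell by 1.14 ± 0.27 after 28 dpn (adjusted p = 0.00019). Inducible and constitutive genes thus changed unequally in both of these periods. Between 1 and 28 dpn the differences changed by -0.26 ± 0.17 and -0.29 ± 0.26 (adjusted p = 0.14 and 0.25), and at this precision an unequal change was not detectable.

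PSMB8 had the second largest SD of the 40 genes at 94 dpc (0.37) and 1 dpn (0.53) and the largest at 28 dpn (0.92) and 188 dpn (0.50). The median SD of the proteasome genes was 0.15, 0.22, 0.19 and 0.24 at the 4 stages, below that of all probe sets at 0.28, 0.39, 0.32 and 0.34. Relations of PSMB8 to PSMB10, PSME1, PSME2, TAP1 and the leukocyte gene PTPRC were computed within each stage, 20 in all, after the values had been seen. At 1 dpn PSMB8 went with TAP1, its neighbour in the MHC and a subunit of the peptide transporter (r = 0.84, adjusted p = 0.0014; rho = 0.80, adjusted p = 0.005; permutation tests, n = 15). It also went with PSMB10 at 1 dpn (r = 0.77, adjusted p = 0.008; rho = 0.82, adjusted p = 0.005; permutation tests) and with PSME2 (r = 0.76, adjusted p = 0.008; rho = 0.70, adjusted p = 0.03; permutation tests). Without the 2 animals farthest from the median of PSMB8 these r were 0.73, 0.85 and 0.56. None of the other 17 relations passed the adjustment. At 28 dpn, where PSMB8 was most variable, r was 0.06 with PSMB10 and 0.02 with PSME2, and whether this differs from 1 dpn was not tested. PTPRC itself had an r of 0.02 with PSMB8 at 1 dpn, and its mean there was 6.65, near background.

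Markers of blood cells were followed over the same periods. Of 11 lymphocyte markers with a probe set 0 lay above the array median in fetuses, 1 in newborns, 5 at 28 dpn and 4 at 188 dpn, and their summed intensity ran from 570 to 1120 in fetuses, 528 to 1120 in newborns, 744 to 2520 at 28 dpn and 849 to 2530 at 188 dpn. The median sums were 846, 696, 1500 and 1100 in order of age. At birth CD8B alone was tested, having passed the filter only through newborns, and rose by 0.59 ± 0.17. Among those not tested there, CD3D, CD8A and KLRK1 had means of 7.16, 6.29 and 6.48 in fetuses. In newborns these were 6.66, 5.59 and 5.63, while LCK had 6.21 and 6.28. Up to 28 dpn 4 of 5 tested rose (background 28.5%), CD8A by 2.62 ± 0.30, KLRK1 by 1.56 ± 0.20, CD3D by 1.47 ± 0.24 and LCK by 1.35 ± 0.23. These 4 lay below the array median at 1 dpn and passed the filter only through 28 dpn. The filter thus favoured rises, and their count carries no weight. After 28 dpn 0 rose (15.5%) and 3 of 5 fell (24.1%), of which KLRK1 passed the filter only through 28 dpn. The other 6 markers, CD2, CD3E, CD3G, CD4, CD79B and PTPRC, lay below the array median at all stages. All 6 macrophage markers were above the median up to 28 dpn and 5 at 188 dpn (without MARCO), with summed intensities of 11700 to 16500, 15900 to 27200, 32000 to 55600 and 22700 to 38100. From 94 dpc to 1 dpn 3 of the 6 rose (background 23.9%), CD14 by 1.70 ± 0.09, and MARCO fell by 0.87 ± 0.17. In the next period 3 rose (28.5%) and CD163 fell, and from 28 to 188 dpn 5 of the 6 fell (24.1%). Of these 5, MARCO passed the filter only through 28 dpn, so the filter favoured its fall. Erythroid markers, which mark fetal blood formation, fell at birth in 5 of 5 genes (41.1%). Of these, KLF1 lay below the array median in newborns and passed the filter only through fetuses, so the filter favoured its fall. The summed intensity of the erythroid markers ran from 8700 to 37600 in fetuses and from 1330 to 4870 in newborns. The part of any of these cells in the proteasome changes was not tested.

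Genes of MHC class I peptide loading, to which immunoproteasome products go, had probe sets for 9 of 14 listed symbols. At birth 6 rose and 2 fell (background 23.9 and 41.1%), and from 1 to 28 dpn 5 rose and 3 fell (28.5 and 39.0%). From 28 to 188 dpn 0 rose and 6 fell (15.5 and 24.1%). The medians of the 3 periods were 0.97, 0.62 and -0.44. TAP1 followed PSMB8 and PSMB10 in rising at birth, by 1.27 ± 0.24, and falling after 28 dpn, by 0.97 ± 0.20 (adjusted p = 3.3e-05 and 0.00021), but it also rose by 1.03 ± 0.30 in between (adjusted p = 0.0035). The list also counts IRF1, a transcription factor of the interferon response. IRF1 rose by 1.39 ± 0.12 and 0.62 ± 0.15 and then fell by 0.58 ± 0.11 (adjusted p = 1.3e-11, 0.00054 and 0.0001). The class I heavy chain genes SLA-2 and SLA-3 rose by 2.30 ± 0.13 and 2.78 ± 0.10 over the span and had no call from 28 to 188 dpn. These 2 genes resemble each other and may share signal on the array. B2M, the light chain, went the other way with a net fall of 0.71 ± 0.10 (adjusted p = 3.1e-08). Its means of 15.98 in fetuses and 15.26 at 188 dpn were as bright as those of the hepatocyte markers. The part of this brightness in the fall was not tested. Among the other listed genes CANX and PDIA3 fell over the span, by 1.15 ± 0.10 and 0.80 ± 0.09. CALR and TAPBP rose over the span, by 0.63 ± 0.11 and 0.63 ± 0.08.

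The alpha ring rose at birth like the beta ring but did not hold the gain. From 94 dpc to 1 dpn 6 of 7 genes rose (background 23.9%), and from 1 to 28 dpn 2 rose and 3 fell (28.5 and 39.0%). From 28 to 188 dpn 6 of 7 fell (24.1%) with a median of -0.48. These 6 falls, of PSMA1 to PSMA6, were also called with quantile normalization and median centring, and 5 of them, all but PSMA3, with the actin ratio as a covariate. Over the span 1 gene rose (PSMA7), 3 fell (PSMA1, PSMA5 and PSMA6) and 3 had no call, in a background of 27.9% that rose and 53.4% that fell. The net falls depended on the scaling, as median centring gave 4 rises (PSMA2, PSMA3, PSMA4 and PSMA7) and 0 falls and quantile normalization 1 rise and 5 falls.

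PSMA2 is an example of this course. It ran from 12.08 to 12.55 (median 12.33) in fetuses, 12.79 to 13.46 (13.10) in newborns, 12.60 to 13.23 (12.92) at 28 dpn and 11.35 to 12.77 (12.28) at 188 dpn. Newborns lay above all fetuses, and the pigs of 188 dpn straddled the fetal range. The gene rose by 0.79 ± 0.07 at birth (adjusted p = 3.8e-11), fell by 0.20 ± 0.08 to 28 dpn (adjusted p = 0.032; 0.11 with no call under median centring) and fell by 0.68 ± 0.12 thereafter (adjusted p = 4.1e-05). PSMA6 had no call in the first 2 periods, with means of 12.55, 12.63 and 12.70, and then fell by 0.64 ± 0.09 (adjusted p = 8.8e-07). Its net fall of 0.49 ± 0.08 became a change of 0.05 with no call under median centring. PSMA4 had the narrowest range of the ring, from 11.56 at 94 dpc to 12.03 at 28 dpn.

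PSMA7, which belongs to the same ring, was the 1 alpha gene with a net rise. Its lowest, median and highest values were 12.65, 12.83 and 13.02 in fetuses, 12.85, 13.42 and 13.80 in newborns, 13.82, 13.95 and 14.34 at 28 dpn and 13.85, 14.15 and 14.83 at 188 dpn. Both older groups lay above all newborns and fetuses. It rose by 0.54 ± 0.07 and 0.61 ± 0.08 in the first 2 periods (adjusted p = 2.1e-07 and 1.3e-07) and changed by 0.19 ± 0.08 in the last (adjusted p = 0.053; called as a rise with median centring). Its net rise of 1.34 ± 0.07, or 2.53-fold (adjusted p = 1.6e-17), was the second largest rise over the span among the 40 genes.

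How the genes of a ring went together from animal to animal is given as a description without a test, since genes of 1 animal share an array. Over the 21 pairs of beta genes the median Pearson r was 0.27 in fetuses, 0.56 in newborns, 0.61 at 28 dpn and 0.52 at 188 dpn. For the alpha genes it was 0.10, 0.15, 0.33 and 0.71. Among all 40 genes the median was between 0.0586 and 0.0916, and among 5491 genes tested it was at most 0.00907. At 188 dpn the 15 pairs among PSMA1 to PSMA6 had r between 0.39 and 0.88, while PSMA7 had r between -0.53 and 0.18 with them. PSMA7 was thus apart from its ring between animals too, with all 6 of its pairs at -0.25 or below at 28 dpn.

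At 188 dpn the animal numbered 12 was among the 3 lowest for 6 of these 6 alpha genes and the animal numbered 9 for 5, whereas animal 2 was among the 3 highest for all 6. Their mean deviations from the stage mean were -0.61, -0.42 and 0.48. The actin ratios of these animals were 4.56, 4.11 and 4.57. Across the 16 animals the ratio had an r between -0.23 (PSMA2) and 0.23 (PSMA4) with PSMA1 to PSMA6 and of 0.52 with PSMA7, and its part in these deviations was not tested.

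The ATPases of the 19S base, which unfold the substrate, rose at birth in 4 of 5 genes (background 23.9%). In the next period 0 rose (28.5%) and 3 fell (39.0%), and from 28 to 188 dpn 1 fell (24.1%). The middle period was unstable, with 5 falls under quantile normalization, 2 rises and 0 falls under median centring and 0 calls with the actin covariate. PSMC5 rose at birth and had no later call. It ran from 10.40 to 11.03 (median 10.86) in fetuses and from 11.62 to 12.18 (11.87) in newborns, with no overlap, and then from 11.46 to 12.01 (11.71) and 11.60 to 11.98 (11.81). The rise at birth was 1.01 ± 0.07 (2.02-fold, adjusted p = 7.7e-14), and later changes were -0.12 ± 0.07 and 0.07 ± 0.06. PSMC3 had the narrowest range, between 11.79 and 12.08, and its net rise of 0.21 ± 0.07 (adjusted p = 0.0062) turned to -0.08 with no call under quantile normalization.

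PSMC2 had the widest range of the ATPases and 3 probe sets, which agreed on the falls after birth but not on the change at birth. The brightest changed by 0.24 ± 0.07 from 94 dpc to 1 dpn (adjusted p = 0.0031), and the others by -0.32 ± 0.08 and -0.24 ± 0.07 (adjusted p = 0.0005 and 0.0051). All 3 fell from 1 to 28 dpn and from 28 to 188 dpn. Their net falls were 0.81 ± 0.11, 1.08 ± 0.10 and 1.35 ± 0.11. The direction of PSMC2 at birth is therefore not settled by these probe sets.

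Of the other base subunits PSMD1, the large scaffold of the base, reversed after birth. Its means were 11.04, 11.49, 10.47 and 10.13 in order of age, a rise of 0.45 ± 0.08 (adjusted p = 1.8e-05) and falls of 1.02 ± 0.10 (adjusted p = 2.4e-10) and 0.33 ± 0.11 (adjusted p = 0.015). Its second probe set had the same directions and calls. PSMD4, a receptor for ubiquitin chains, had the narrowest range of the 3, with 10.86, 10.92, 11.36 and 10.98. It rose by 0.44 ± 0.08 from 1 to 28 dpn and fell by 0.38 ± 0.07 from 28 to 188 dpn (adjusted p = 1.1e-05 and 5.5e-05).

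The 19S lid had subunits with a net rise and subunits with a net fall. Over the span 81.3% of all probe sets were called, so such a split is not particular to the lid. Here 4 rose (PSMD3, PSMD8, PSMD11 and PSMD13), in a background of 27.9%, and 3 fell (PSMD6, PSMD12 and PSMD14), in a background of 53.4%. These 7 calls were the same with quantile normalization, median centring and the actin covariate. With the mean over the probe sets of a gene PSMD11 fell instead, and the median change of the 7 turned from 0.62 to -0.47. At birth 4 rose and 0 fell (background 23.9 and 41.1%). From 1 to 28 dpn 3 rose and 3 fell (28.5 and 39.0%), and from 28 to 188 dpn 0 rose and 3 fell (15.5 and 24.1%).

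PSMD14, the enzyme of the lid that cuts ubiquitin chains off the substrate, had the largest net fall of the 40 genes. It ran from 10.24 to 11.05 (median 10.60) in fetuses, 10.60 to 11.61 (11.05) in newborns, 9.15 to 10.55 (9.79) at 28 dpn and 8.50 to 9.58 (9.20) at 188 dpn. Newborns overlapped with fetuses, every pig of 28 dpn was below every newborn, and every pig of 188 dpn was below every fetus. After a rise of 0.43 ± 0.10 at birth (adjusted p = 0.00026) it fell by 1.27 ± 0.11 (adjusted p = 3.5e-11) and by 0.63 ± 0.12 (adjusted p = 5e-05), with a net fall of 1.48 ± 0.10 (2.79-fold, adjusted p = 2.8e-15). PSMD12, a structural subunit of the lid, had no call at birth, with means of 9.69 and 9.76, and fell by 1.05 ± 0.11 to 28 dpn (adjusted p = 1e-09), where animals did not overlap.

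PSMD3, a structural subunit with the narrowest range of the lid, rose by 0.19 ± 0.07 at birth and 0.48 ± 0.08 to 28 dpn (adjusted p = 0.015 and 2.1e-06). PSMD11, which holds lid and base together, rose by 0.69 ± 0.10 from 1 to 28 dpn (adjusted p = 5.3e-07) and fell by 0.28 ± 0.07 afterwards (adjusted p = 0.0015) in its brightest probe set. A second probe set gave 0.41 ± 0.13 and -0.38 ± 0.15 in these periods. The third, the dimmest, fell from 7.84 to 6.03 between 1 and 28 dpn, close to the brightest background control of that stage at 5.73, so the net rise of PSMD11 rests on the choice of probe set.

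The assembly factors, which build the particle and are absent from the finished one, had 0 of 4 genes that rose at birth and 2 that fell, in a background of 23.9 and 41.1%. Up to 28 dpn 1 rose and 3 fell (28.5 and 39.0%). Over the span 1 rose (PSMG3) and 3 fell (PSMD5, PSMD10 and PSMG1), in a background of 27.9 and 53.4%. PSMD10, also known as gankyrin, binds a base ATPase during assembly. Its levels ran from 9.66 to 10.03 (median 9.85) in fetuses, 8.93 to 9.71 (9.26) in newborns, 8.70 to 9.36 (9.05) at 28 dpn and 7.93 to 9.02 (8.41) at 188 dpn. Each stage overlapped with the next, but all pigs of 188 dpn were below all fetuses. The falls were 0.58 ± 0.08, 0.23 ± 0.09 and 0.62 ± 0.09 (adjusted p = 1.4e-07, 0.03 and 4.1e-06), and the net fall was 1.43 ± 0.08 (2.70-fold, adjusted p = 6.8e-17). PSMD5, another chaperone of the base, had no call at birth and a net fall of 0.89 ± 0.11 (adjusted p = 2.4e-09). PSMG1, which guides the alpha ring, had means of 10.01 and 10.02 around birth and fell by 0.65 ± 0.09 to 28 dpn (adjusted p = 4.2e-07). PSMG3, a further core chaperone, fell by 0.45 ± 0.16 at birth and then rose by 0.66 ± 0.16 and 0.22 ± 0.08 (adjusted p = 0.014, 0.00066 and 0.038).

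The activators, which open the core without ubiquitin, parted after birth. PSME1 and PSME2 together form an interferon-inducible ring, PSME3 forms a nuclear ring by itself, and PSME4 is a single-chain activator. At birth PSME1, PSME2 and PSME3 rose and PSME4 had no call (-0.02 ± 0.17). Between 1 and 28 dpn PSME1 and PSME2 rose while PSME3 and PSME4 fell, but with the actin covariate the fall of PSME3 was the 1 call left among the 4. The rise of PSME2, 0.24 ± 0.10 (adjusted p = 0.029), also lost its call with quantile normalization, without the filter and without the least correlated arrays.

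PSME1 ran from 11.31 to 11.82 (median 11.63) in fetuses, 11.50 to 12.36 (12.00) in newborns, 12.29 to 13.10 (12.83) at 28 dpn and 12.36 to 13.17 (12.67) at 188 dpn. PSME2 ran from 10.57 to 11.23 (10.93), 11.51 to 12.18 (11.97), 11.38 to 12.47 (12.25) and 11.39 to 11.84 (11.60) at these stages. The main step of PSME1 was thus between 1 and 28 dpn, 0.85 ± 0.08 (adjusted p = 3.2e-10), and that of PSME2 at birth, 1.02 ± 0.08 (adjusted p = 4.6e-13), where fetuses and newborns did not overlap. PSME2 fell by 0.54 ± 0.08 after 28 dpn (adjusted p = 5.3e-06), and PSME1 changed by -0.15 ± 0.08 with no call, although it was called as a fall with quantile normalization and with the actin covariate.

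PSME3 ran from 8.87 to 9.57 (median 9.20) in fetuses, 9.57 to 10.51 (10.01) in newborns, 8.57 to 9.10 (8.80) at 28 dpn and 7.97 to 8.84 (8.40) at 188 dpn. Newborns stood above every other animal. The gene rose by 0.80 ± 0.09 at birth (adjusted p = 9.7e-09), fell by 1.17 ± 0.09 to 28 dpn (adjusted p = 1.5e-12) and by 0.37 ± 0.08 to 188 dpn (adjusted p = 0.00044). The fall to 28 dpn was also called with quantile normalization, median centring and the actin covariate. PSME4 fell by 1.02 ± 0.17 from 1 to 28 dpn (adjusted p = 5.8e-06), which was not called with the actin covariate.

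Within animals PSME1 less PSME3 rose by 2.02 ± 0.10 and PSME2 less PSME3 by 1.41 ± 0.12 from 1 to 28 dpn (adjusted p = 2e-05 each, permutation tests), and in both the animals of the 2 stages did not overlap. At birth PSME1 less PSME3 fell by 0.47 ± 0.09 (adjusted p = 2e-05, permutation test). PSME2 less PSME3 changed by 0.22 ± 0.10 at birth with an adjusted p of 0.047 in the permutation test, and it lost this call under 3 alternatives, with 0.06 under quantile normalization. After 28 dpn the differences changed by 0.22 ± 0.11 and -0.17 ± 0.11 (adjusted p = 0.068 and 0.14, permutation tests).

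**Figure D4:**
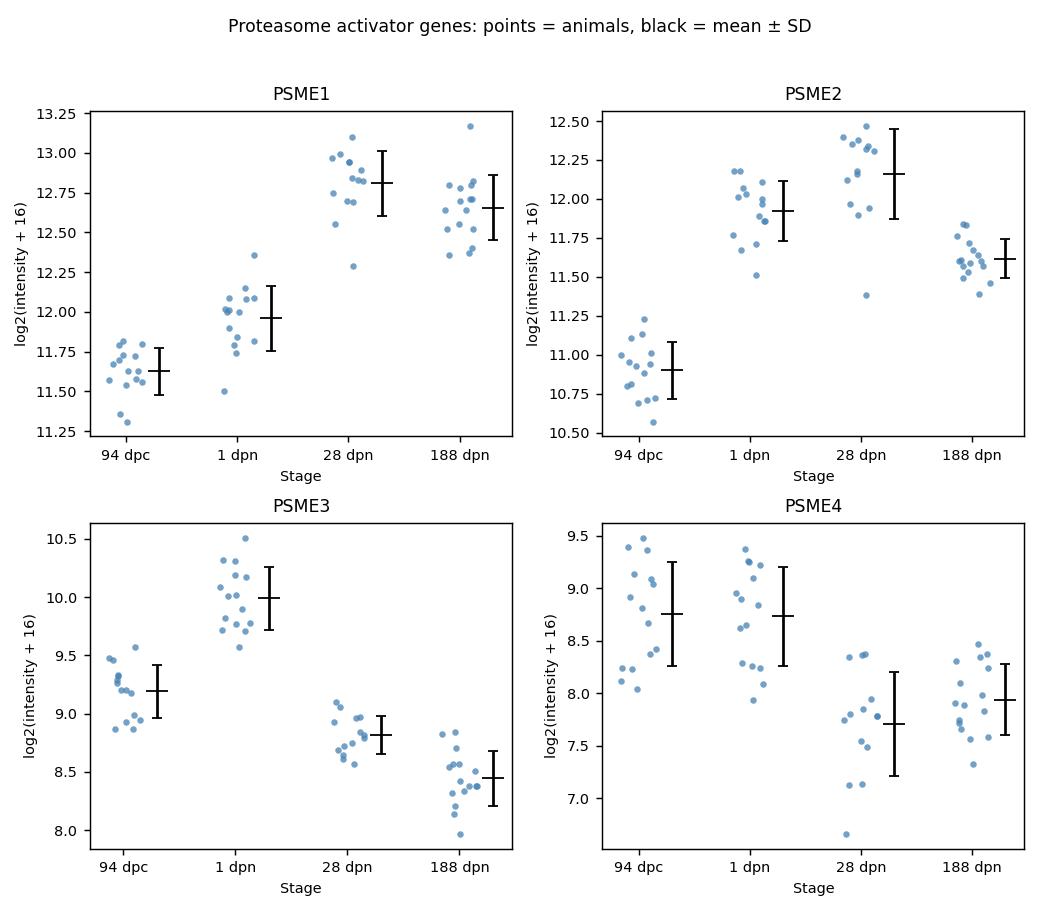
Level of the 4 activator genes in each animal at the 4 stages, as log2 of intensity plus 16 on a y axis that starts above 0 and differs between panels; black marks are the mean ± SD. PSME3 peaks in newborns and is lowest at 188 dpn, whereas PSME1 and PSME2 are highest at 28 dpn.

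PSMF1, an inhibitor of the core in vitro, had 2 probe sets that disagreed. The brighter over all arrays ran from 8.68 to 9.56 (median 9.21) in fetuses, 7.77 to 9.25 (8.65) in newborns, 9.04 to 9.97 (9.61) at 28 dpn and 9.20 to 10.40 (9.88) at 188 dpn. The other ran from 9.28 to 10.30 (9.93), 9.10 to 10.30 (9.71), 8.11 to 9.06 (8.81) and 8.06 to 9.34 (8.54). Between 1 and 28 dpn the first rose by 0.96 ± 0.12 (adjusted p = 3.5e-08) while the second fell by 1.04 ± 0.12 (adjusted p = 4.6e-09). Over the span they gave 0.70 ± 0.10 and -1.21 ± 0.12, and so no direction can be given for the gene.

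Genes around the proteasome, from a list of ubiquitin supply, shuttling and assembly, had probe sets for 11 of 34 symbols. Of these 4 rose and 4 fell at birth among 10 tested, 3 rose and 5 fell from 1 to 28 dpn, and 3 rose and 4 fell from 28 to 188 dpn. Among the 3 rises to 28 dpn, AKIRIN2 (0.55 ± 0.21) passed the filter only through 28 dpn, so the filter favoured it. At birth the share that fell was near the background of 41.1%, and the share that rose lay above the background of 23.9%. In the later periods 28.5 and 15.5% of all probe sets rose and 39.0 and 24.1% fell. A difference from the proteasome genes was not tested. SEM1, the smallest subunit of the lid under a symbol without the prefix, rose by 0.72 ± 0.06 at birth (adjusted p = 2.2e-12) and fell by 0.64 ± 0.09 after 28 dpn (adjusted p = 7.3e-07). VCP, the segregase that hands unfolded proteins to the cap, rose by 0.57 ± 0.08 at birth (adjusted p = 2.5e-07). The ubiquitin precursor genes UBB and RPS27A fell at birth by 0.26 ± 0.09 and 0.66 ± 0.09 (adjusted p = 0.01 and 1.1e-07) and rose from 28 to 188 dpn by 0.31 ± 0.08 and 0.23 ± 0.07 (adjusted p = 0.0033 and 0.014). Their stage means, between 15.13 and 15.96, were as bright as those of the hepatocyte markers, all 6 of which also rose in that last period. The part of this brightness in these changes was not tested.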

How the data were processed

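Liver RNA of 60 pigs was hybridised to Affymetrix porcine arrays, 1 per animal, and animals were grouped by the stage in the labels. The authors deposited 1 linear intensity per probe set, made with GCOS 1.1.1 according to the submitters' processing notes. Trimmed by 2% at each end, array means lay between 500.13 and 500.22. These deposited intensities are not the log-scale values on which the study ran its tests. Here 16 was added and log2 taken. Of 24123 probe sets 124 were controls. Symbols came from the platform annotation, which names 1 gene for 10069 probe sets.

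Stages were compared in pairs with limma 3.58.1 (R 4.3.3), two-sided, with Benjamini-Hochberg adjustment over 12771, 12976, 12568 and 13361 probe sets for the 3 periods and the whole span, and with a moderated F over 13844. The fit was tested on simulated data. Sex, litter and weight, used in the study's models, are not in the labels and were left out; the design note gives 8 litters per stage. Differences between 2 genes and correlations used permutation tests in Python 3.11.15 with numpy 2.4.6 and scipy 1.17.1. PSMB9 has no probe set, which left 12 of the planned tests of pairs. Members and lists were chosen with earlier results of these data known, and lists are described by counts and medians without a test. The 29 genes given with values are the immunoproteasome genes and their counterparts, PSME1 to PSME3, PSMF1, up to 5 largest rises and falls per comparison, and the widest and narrowest range of each subcomplex. Hepatocyte, lymphocyte, macrophage and erythroid marker lists were counted. There were 10 alternatives: pseudocounts of 1 and 64, no filter, a stricter filter, quantile normalization, median centring, the actin ratio as a covariate, 1 fit over all arrays, leaving out the least correlated array of every stage, and the mean over the probe sets of a gene. The number of arrays limits the precision.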

Additional observations from a re-analysis of the deposited data

How the results depend on the processing

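Of the changes of the 29 named genes under 10 alternatives, 1071 had the same direction and call, 51 lost the call, 28 gained one and 10 reversed. Of the summary results and the pair differences, 173 were unchanged in call and within range, 11 moved, 3 lost a call, 1 gained one and 1 reversed. The median change of the 40 genes less that of all probe sets became 0.26 at birth, -0.16 from 1 to 28 dpn and 0.07 over the span with quantile normalization, and over the span 0.43 with the actin ratio as a covariate and 0.45 with the mean over the probe sets of a gene. From 1 to 28 dpn 23 genes rose and 8 fell with median centring, and 6 rose and 5 fell with the actin covariate. From 28 to 188 dpn 1 gene rose without a filter, 5 with median centring and 1 with the actin covariate. PSME2 less PSME3 at birth lost its call with a pseudocount of 1 (0.21), quantile normalization (0.06) and with the least correlated array of every stage left out (0.20), and after 28 dpn it gained one with quantile normalization (-0.28). Changes that reversed were, with median centring, PSMA2 (0.11) and PSMD10 (0.09) from 1 to 28 dpn and PSMA6 over the span (0.05), with quantile normalization PSMB1 (-0.05) and PSMC3 (-0.08) over the span, and with the mean over probe sets PSMC2 at birth (-0.11), PSMD11 from 1 to 28 dpn (-0.23) and over the span (-0.47), and PSMF1 from 1 to 28 dpn (-0.04) and over the span (-0.26). The last follow from averaging probe sets that disagree; for the others the cause was not tested. No paired analysis was possible because the labels give no number that links animals of different stages.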
